A study of Homo sapiens with 11 samples.

Results

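The genes described here are 9 interferon-stimulated genes and RNA sensors, IFIT1, IFIT2, IFIT3, ISG15, MX1, OAS1, IFI6, IFIH1 and DDX58, out of 31325 gene symbols measured on 11 Illumina BeadChip arrays. They were chosen by name, as genes of the innate response to RNA, with earlier results of these data known. All 9 were in the table with 1 value per array. The arrays fell into 4 groups. MDA-MB-231 breast cancer cells carried either a miR-365a-3p mimic (3 arrays) or a control miRNA (3 arrays), and SKOV3 ovarian cancer cells (SKOV3.ip1 in the methods of the study) carried the same mimic (3 arrays) or the control miRNA (2 arrays). Every group had thus been transfected with a small RNA, so these comparisons ask whether the response differed between the mimic and the control RNA or between the cell lines, and not whether transfection itself raised the genes. Untransfected cells were not analysed here. The sample labels place the mimic arrays at 48 h, whereas the text of the series gives 24 h, and the dose used for the arrays is not given in the sources used here. MDA-MB-231 and SKOV3 are each 1 established line, and the labels do not say whether replicate arrays came from separate cultures, so p-values measure the spread between these arrays, which may be technical.

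Cells detect foreign RNA with cytosolic receptors, among them RIG-I (encoded by DDX58) and MDA5 (encoded by IFIH1), which signal through the adaptor MAVS and the transcription factor IRF3 to switch on type I and type III interferons. Secreted interferon binds its receptor, activates JAK1 and TYK2, and leads a complex that holds STAT2 and IRF9 to bind interferon-stimulated response elements upstream of many genes. The products act on viral RNA and proteins: the IFIT proteins bind RNA and restrain translation, ISG15 is a ubiquitin-like modifier, OAS1 makes the second messenger that activates RNase L, MX1 is a dynamin-like GTPase that blocks viral replication, and IFI6 is a small membrane protein with antiviral and anti-apoptotic activity. IRF3 can also act directly on some of these genes, the IFIT genes and ISG15 among them.

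The transfected mimic carries the mature miR-365a-3p sequence, shown here because it is the RNA whose effect was measured. RefSeq places it at chr16:14309340-14309361 on the plus strand of GRCh38.p14, and the capitals mark its seed, bases 2 to 8.
miR-365a-3p: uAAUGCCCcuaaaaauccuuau

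The promoters are shown because the 9 genes were chosen as targets of 1 response, and 4 serve as examples: those of IFIT1, ISG15 and IFI6, whose mRNAs were higher after the mimic, and that of DDX58 (RIGI in the current annotation), whose mRNA was not called. Each is the 250 bases before the RefSeq start site in GRCh38.p14, read 5′ to 3′ on the strand of the gene. The IFIT1 stretch is at chr10:89392373-89392622 (plus strand), that of ISG15 at chr1:1013247-1013496 (plus strand), that of IFI6 at chr1:27672193-27672442 (minus strand) and that of DDX58 at chr9:32526197-32526446 (minus strand). Capitals mark the core repeats of interferon response elements, here GAAA followed by a second GAAA after 2 bases or 1 base of any kind, on either strand (TTTC and TTTC when read on the other), and overlapping matches run together.
IFIT1: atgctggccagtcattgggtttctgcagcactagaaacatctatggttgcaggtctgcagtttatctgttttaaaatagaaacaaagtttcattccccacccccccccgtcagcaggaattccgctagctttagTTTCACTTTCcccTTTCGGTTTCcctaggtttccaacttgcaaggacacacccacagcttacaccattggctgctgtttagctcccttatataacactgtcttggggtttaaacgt
ISG15: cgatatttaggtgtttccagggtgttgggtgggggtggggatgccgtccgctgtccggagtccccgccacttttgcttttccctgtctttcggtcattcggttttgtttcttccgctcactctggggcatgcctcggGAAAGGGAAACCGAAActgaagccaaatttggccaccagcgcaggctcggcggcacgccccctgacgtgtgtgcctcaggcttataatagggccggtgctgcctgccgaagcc
IFI6: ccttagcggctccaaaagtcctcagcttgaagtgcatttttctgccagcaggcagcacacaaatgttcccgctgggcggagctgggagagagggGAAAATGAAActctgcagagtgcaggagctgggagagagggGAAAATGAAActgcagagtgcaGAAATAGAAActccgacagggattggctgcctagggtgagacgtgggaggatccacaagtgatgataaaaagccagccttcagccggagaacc
DDX58: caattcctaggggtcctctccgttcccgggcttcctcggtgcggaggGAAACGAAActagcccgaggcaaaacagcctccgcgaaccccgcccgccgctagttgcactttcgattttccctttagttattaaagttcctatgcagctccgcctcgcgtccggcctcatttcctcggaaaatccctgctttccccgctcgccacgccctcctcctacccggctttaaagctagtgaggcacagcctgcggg

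IFIT1 held 2 separate matches with 2 bases between the repeats, ISG15 held 2 overlapping ones, IFI6 held 3, and DDX58 held 1 match with a single base between the repeats. A promoter was found for 8 of the 9 genes, and IFIT2 was the other. The core with 2 bases between the repeats was present in 6 of the 8, or 75%, against 3.71% of 27305 annotated genes with promoters of the same length. The shorter core was present in 4 of 8, or 50%, against 3.34% of the annotated genes, and each of the 8 genes held at least 1 of the 2 forms, against 6.74% of all. Other interferon-stimulated genes, a list of 44 described below, held the cores often too. Of the 35 with a promoter, 65.7% held the core with 2 bases, 34.3% the shorter core and 77.1% either form. The shorter form was searched after the sequences had been read. Genes whose mRNA was higher after the mimic (IFIT1, ISG15, IFI6) and genes whose mRNA was not called (IFIH1, DDX58) both held a core, and a match is a description of the letters, not of binding.

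**Figure D1:**
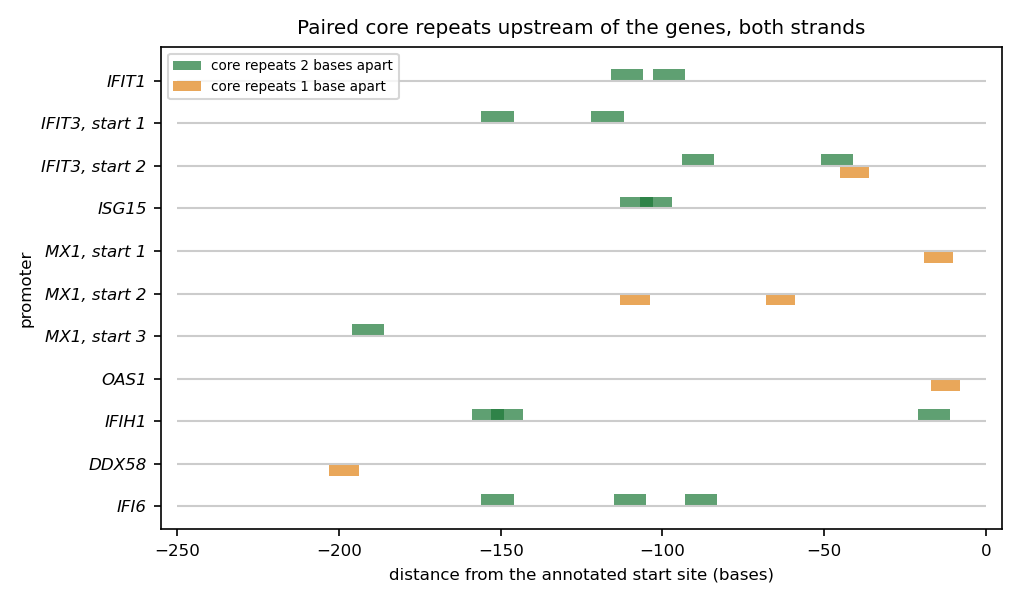
Positions of the paired core repeats in the 250 bases before each RefSeq start site (x axis, bases from the start site) of the 8 genes with an annotated promoter, 1 line per start site. Green blocks have 2 bases between the repeats and orange blocks 1 base, and every gene shown has at least 1 block.

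On these arrays 60% of all gene rows lay below a log2 signal of 7.43 in each group, a level here called the dim range. No detection p-values were used, so a gene in the dim range cannot be told apart from background. Levels are given as log2 signal after quantile normalization across the 11 arrays, and differences were tested with limma over all 31325 genes, with an adjusted p under 0.05 as the call. The 75th percentile of the deposited values moved with treatment: it averaged 7.91 in MDA-MB-231 control and 7.62 in mimic arrays, and 8.01 in SKOV3 control and 7.74 in mimic arrays. Quantile normalization removes this difference, and the calls of the 9 genes that differ on the deposited values are given beside the results. HDAC4, a histone deacetylase known as a target of miR-365a, was lower after the mimic by a log2 difference of -1.08 in MDA-MB-231 (adjusted p = 9.16e-05) and -0.75 in SKOV3 cells (adjusted p = 0.00208). In the control arrays the SKOV3 markers ERBB2, EPCAM, PAX8 and KRT8 were higher in SKOV3 than in MDA-MB-231 cells, with ERBB2 at 10.86 against 7.61. WT1 and MUC16, also listed as SKOV3 markers, lay in the dim range in both lines, KRT18 was not called, and none of the 5 markers listed for MDA-MB-231 (VIM, AXL, CAV1, CD44 and MSN) was called between the control arrays of the lines.

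In MDA-MB-231 cells, 6 of the 9 genes were higher after miR-365a-3p than after the control miRNA, and none was lower. They were the 3 IFIT genes, ISG15, IFI6 and OAS1, with log2 differences between 0.33 and 1.62. MX1, IFIH1 and DDX58 were not called. Over all genes, 26.1% were called in this comparison in either direction, 14.4% higher and 11.7% lower. The median log2 difference was 0.62 over the 9 genes and 0.0064 over all genes. In SKOV3 cells 4 of the 9 were higher (IFIT1, IFIT2, ISG15 and OAS1), MX1 was lower, and the median log2 difference was 0.39, against 14.4% of all genes called (7.25% higher and 7.11% lower) and a median of 0.0066.

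IFIT1 and IFIT2 gave the largest log2 differences of the 9 genes in MDA-MB-231 cells. IFIT1, which binds RNA lacking the methylated cap of host mRNA, read 9.50, 9.27 and 9.17 in the 3 MDA-MB-231 mimic arrays and 7.75, 7.73 and 7.83 in the control arrays. In SKOV3 cells it read 9.11, 8.43 and 8.31 after the mimic and 7.87 and 7.80 after the control miRNA. Every mimic array lay above every control array in both lines, and mimic replicate 1 of SKOV3 stood well above the others. The share of all genes whose groups separate in this way was not computed, here or for the genes below. The log2 difference of IFIT1 was 1.54 ± 0.19 (SE) in MDA-MB-231 (adjusted p = 0.000453) and 0.79 ± 0.21 in SKOV3 cells (adjusted p = 0.0367). If the deposited scale is a plain log2, these are 2.91-fold and 1.72-fold.

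IFIT2, which partners IFIT1 and IFIT3 in an antiviral complex, read 10.23, 10.24 and 10.34 in the MDA-MB-231 mimic arrays against 8.87, 8.47 and 8.59 in the controls. The SKOV3 values were 8.28, 8.17 and 7.98 after the mimic and 7.70 and 7.74 after the control miRNA. Here too the groups did not overlap in either line, and the gap was wide in MDA-MB-231 and narrow in SKOV3 cells. The log2 difference was 1.62 ± 0.10 in MDA-MB-231 (adjusted p = 2.04e-05) and 0.43 ± 0.12 in SKOV3 cells (adjusted p = 0.0420).

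IFIT3, the member of the family that stabilizes IFIT1, showed smaller differences. Its values were 8.25, 8.41 and 8.57 in MDA-MB-231 mimic arrays and 7.72, 7.82 and 7.83 in controls, a log2 difference of 0.62 ± 0.07 (adjusted p = 0.000438). The SKOV3 arrays read 7.81, 7.73 and 7.88 after the mimic and 7.52 and 7.54 after the control miRNA, a log2 difference of 0.27 ± 0.08 that was not called (adjusted p = 0.0620). The groups were separate in both lines. On the deposited values the MDA-MB-231 difference of IFIT3 was 0.28 and was not called (adjusted p = 0.119).

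ISG15, whose protein is attached to other proteins during the interferon response, was higher after the mimic in both lines. It read 9.93, 9.37 and 9.48 in MDA-MB-231 mimic arrays against 8.75, 8.51 and 8.35 in controls, and 8.98, 8.62 and 8.88 in SKOV3 mimic arrays against 8.07 and 8.03 in controls. No mimic array fell to the level of a control array of its line. The log2 difference of ISG15 was 1.06 ± 0.16 in MDA-MB-231 (adjusted p = 0.00143) and 0.77 ± 0.18 in SKOV3 cells (adjusted p = 0.0218).

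IFI6 read 9.15, 8.73 and 8.73 in MDA-MB-231 mimic arrays and 8.23, 8.10 and 7.96 in controls, and its log2 difference was 0.77 ± 0.14 (adjusted p = 0.00335). In SKOV3 cells the values were 9.29, 8.88 and 9.12 after the mimic and 8.66 and 8.60 after the control miRNA. The groups were again separate in SKOV3 cells, but the log2 difference of 0.47 ± 0.15 was not called (adjusted p = 0.0848). OAS1 read 7.84, 7.73 and 7.72 in MDA-MB-231 mimic arrays and 7.44, 7.46 and 7.41 in controls, at the edge of the dim range, with a log2 difference of 0.33 ± 0.10 (adjusted p = 0.0331). In SKOV3 cells OAS1 read 8.17, 7.72 and 7.86 after the mimic and 7.53 and 7.53 after the control miRNA, with a log2 difference of 0.39 ± 0.11 (adjusted p = 0.0435). The OAS1 call in MDA-MB-231 cells held in 3 of the 11 fits that left out 1 array, was lost when any of the 6 MDA-MB-231 arrays or either SKOV3 control was left out (adjusted p up to 0.111), and was lost on the deposited values (log2 difference 0.12, adjusted p = 0.270).

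MX1 was the exception among the effector genes. The SKOV3 controls read 7.91 and 7.77 and the SKOV3 mimic arrays 7.57, 7.65 and 7.59, so that all mimic arrays lay below both controls. MX1 fell in SKOV3 cells by a log2 difference of -0.24 ± 0.04 (adjusted p = 0.00666), and by -0.49 on the deposited values (adjusted p = 0.000812). In MDA-MB-231 cells it was in the dim range, with 7.29, 7.25 and 7.29 after the mimic and 7.30, 7.34 and 7.37 after the control miRNA, a log2 difference of -0.06 that was not called (adjusted p = 0.378). The call in SKOV3 cells was lost without SKOV3 control replicate 1, where the difference was -0.17 (adjusted p = 0.0515).

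The RNA sensors were near the dim range in both lines. IFIH1, whose product MDA5 senses long double-stranded RNA, read between 7.40 and 7.50 in MDA-MB-231 mimic arrays and between 7.46 and 7.50 in controls. Its SKOV3 values were 7.46, 7.70 and 7.51 after the mimic and 7.50 and 7.48 after the control miRNA, and the groups overlapped in both lines. The log2 difference of IFIH1 was -0.03 in MDA-MB-231 (95% interval -0.15 to 0.10, adjusted p = 0.834) and 0.07 in SKOV3 cells (-0.08 to 0.21, adjusted p = 0.669). DDX58, whose product RIG-I senses short RNA with a 5′ triphosphate, read 7.47, 7.46 and 7.64 in MDA-MB-231 mimic arrays and 7.67, 7.56 and 7.53 in controls, a log2 difference of -0.06 (-0.18 to 0.05, adjusted p = 0.486). The SKOV3 arrays read between 7.41 and 7.42 after the mimic and 7.40 after the control miRNA, in the dim range, with a difference of 0.01 (adjusted p = 0.960). Here too all SKOV3 mimic arrays lay above both controls, although the difference was that small. On the deposited values DDX58 was called lower in MDA-MB-231 cells, with a log2 difference of -0.20 (adjusted p = 0.00539).

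**Figure D2:**
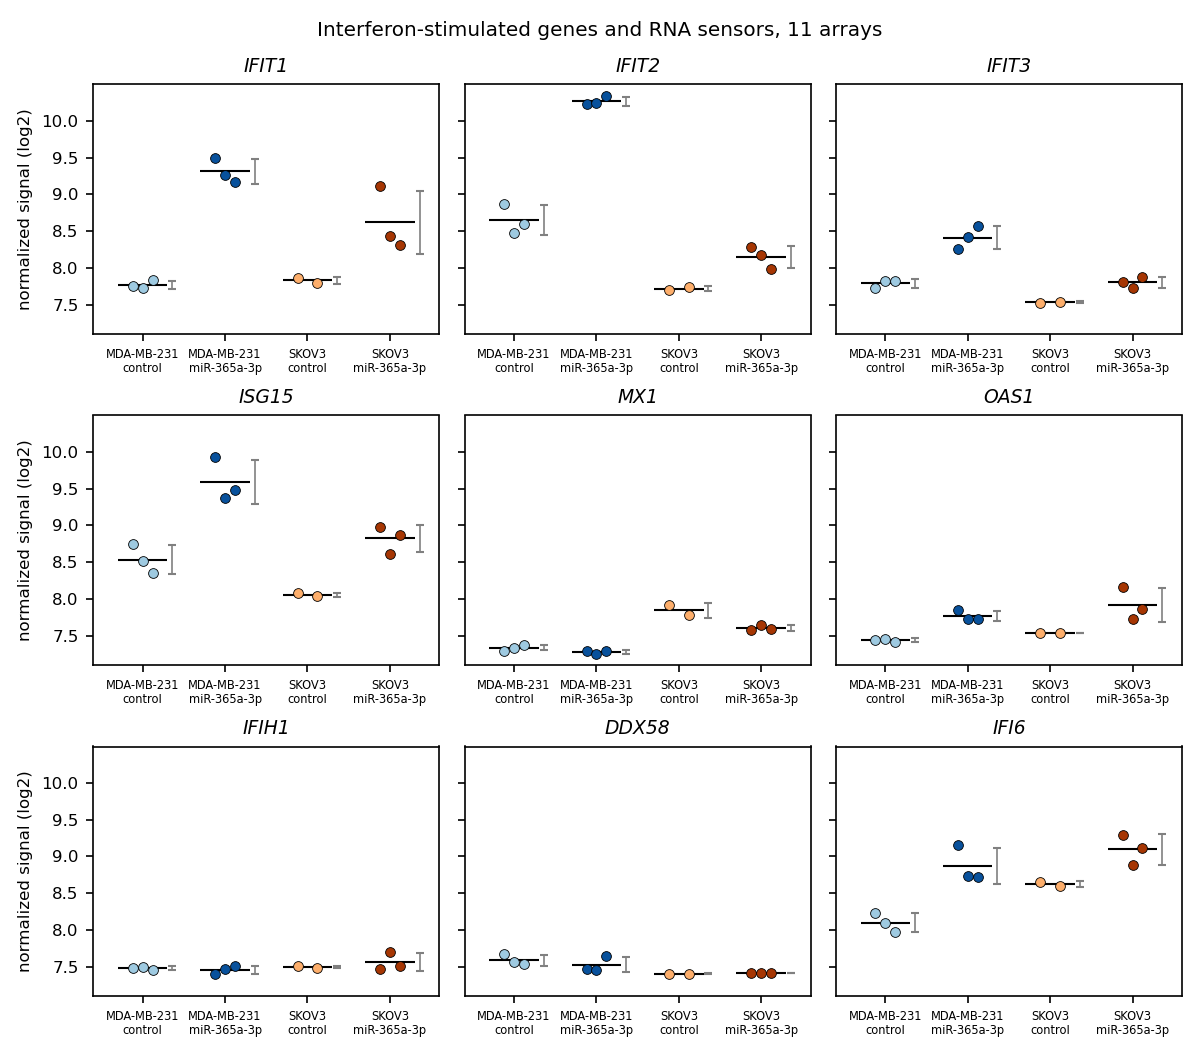
Quantile-normalized log2 signal (y axis) of the 9 genes in each of the 11 arrays, 1 panel per gene, with the 4 groups on the x axis. Points are arrays, horizontal lines are group means and grey bars are ± 1 SD. Blue points (MDA-MB-231) and orange points (SKOV3) are higher after miR-365a-3p for IFIT1, IFIT2, IFIT3, ISG15, OAS1 and IFI6, while IFIH1 and DDX58 lie between 7.40 and 7.70 in every array.

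A two-sided exact permutation test of single genes exchanged mimic and control labels within each line over all 200 arrangements, using the mean of the differences in both lines. The smallest p-value it can give, 0.005, was reached by IFIT1, IFIT2, IFIT3, ISG15 and MX1, the last with a lower level after the mimic. The same exact test gave p = 0.01 for OAS1 and IFI6, p = 0.51 for DDX58 and p = 0.865 for IFIH1. These p-values are not adjusted. The test was run on the chosen genes only, so the share of all genes that reach its smallest p-value was not computed. In the limma fit, 26.1% of all genes were called for treatment in MDA-MB-231 and 14.4% in SKOV3 cells.

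The SKOV3 calls rested on few arrays. On the deposited values 1 of the 9 genes (MX1) was called in SKOV3 cells, and IFIT1, IFIT2, ISG15 and OAS1 had log2 differences of 0.54, 0.17, 0.52 and 0.20 (adjusted p = 0.0894, 0.185, 0.0600 and 0.131). Without SKOV3 control replicate 1 no gene of the 9 was called, and without SKOV3 control replicate 2 only MX1 was, which left 1 control array in each case, assumed to vary like the other groups. Over the 11 fits that left out 1 array, ISG15 was called in 7, IFIT1 in 4, IFIT2 in 3 and OAS1 in 2, with the differences of IFIT1 between 0.54 and 0.94 and those of IFIT2 between 0.36 and 0.51. These differences of IFIT1, IFIT2, ISG15 and OAS1 kept their sign in the 11 fits. The number of genes called was 5 without MDA-MB-231 mimic replicate 1 or SKOV3 mimic replicate 2, and 2 or 3 without any of the remaining 7 arrays. In MDA-MB-231 cells IFIT1, IFIT2, IFIT3, ISG15 and IFI6 were called in all 11 of these fits, and 5 of the 9 genes were called on the deposited values: IFIT1, IFIT2, ISG15 and IFI6 higher and DDX58 lower.

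**Figure D3:**
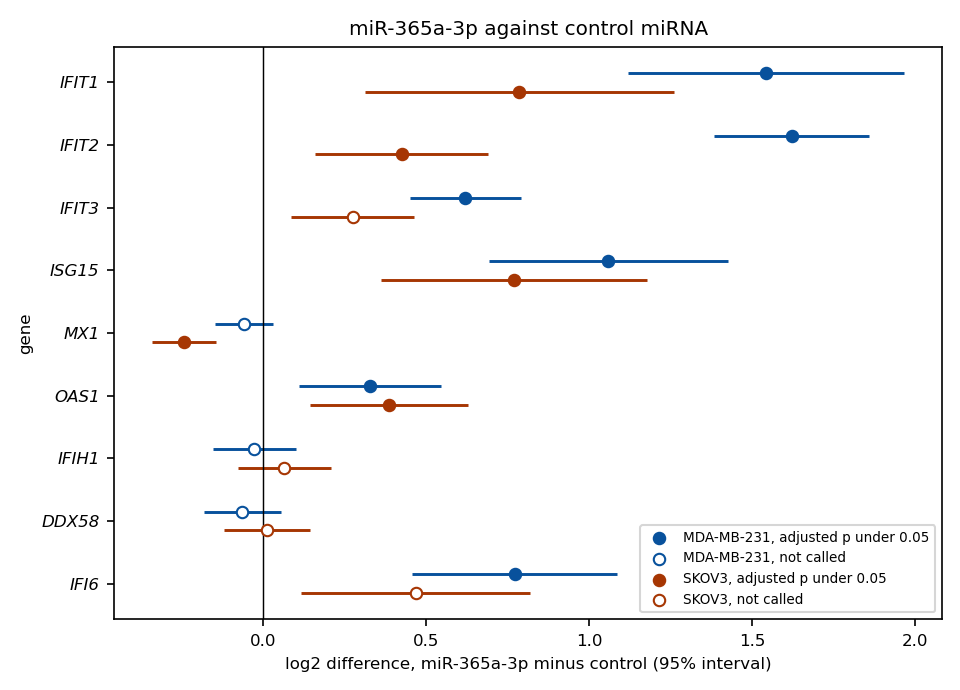
Log2 difference between miR-365a-3p and control miRNA (x axis, with 95% intervals) for each of the 9 genes in MDA-MB-231 (blue) and SKOV3 cells (orange). Filled points have an adjusted p under 0.05: 6 genes in MDA-MB-231, all higher, and 5 in SKOV3 cells, of which MX1 alone is lower.

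The effect of the mimic was then compared between the lines. IFIT2 was the only one of the 9 genes for which the difference itself was called: its effect was larger in MDA-MB-231 than in SKOV3 cells by 1.20 on the log2 scale (95% interval 0.84 to 1.55, adjusted p = 0.00582). With the replicate number within each line as a block the difference was 1.12 and was not called (adjusted p = 0.0948). Over all genes 2.54% were called in this comparison, 1.24% higher and 1.3% lower, and 0.393% were called with that block. The IFIT1 effects differed by 0.76 (0.12 to 1.39, adjusted p = 0.277) and those of IFIT3 by 0.35 (0.09 to 0.60, adjusted p = 0.201), and neither was called. Differences for ISG15 (0.29, -0.26 to 0.84), IFI6 (0.30, -0.17 to 0.78) and OAS1 (-0.06, -0.38 to 0.27) had intervals on both sides of 0, which does not show that the lines responded alike. IFIT1 was called without SKOV3 mimic replicate 1, the array with the high IFIT1 value, at a difference of 1.01 (adjusted p = 0.00687). MX1, with a difference of 0.18 (adjusted p = 0.193), was called on the deposited values, where the difference was 0.43 (adjusted p = 0.0291).

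Between the lines, the control arrays showed which genes differed under the control miRNA. IFIT2 was higher in MDA-MB-231 than in SKOV3 controls by a log2 difference of 0.93 ± 0.12 (adjusted p = 0.000656), and MX1 was lower by -0.51 ± 0.04 (adjusted p = 7.5e-05). The other 7 genes were not called, against 16.1% of all genes (7.76% higher and 8.34% lower in MDA-MB-231). For IFI6 the difference was -0.53 (adjusted p = 0.0512) and for DDX58 0.19 (adjusted p = 0.0642), and both were called on the deposited values, where they were -0.63 (adjusted p = 0.00844) and 0.21 (adjusted p = 0.0106). The number called rose to 5 without MDA-MB-231 mimic replicate 1 (IFIT3, ISG15 and IFI6 added) and to 4 without MDA-MB-231 mimic replicate 3 (IFIT3 and DDX58 added). IFIT1 overlapped between the controls of the lines, at 7.73 to 7.83 in MDA-MB-231 and 7.80 to 7.87 in SKOV3 controls, a difference of -0.06 (-0.54 to 0.41, adjusted p = 0.936).

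In the mimic arrays, 5 of the 9 genes differed between the lines, against 17% of all genes (8.71% higher and 8.29% lower in MDA-MB-231). IFIT2 was higher in MDA-MB-231 cells by 2.13 ± 0.10 (adjusted p = 2.93e-06), ISG15 by 0.77 ± 0.16 (adjusted p = 0.0106), IFIT1 by 0.69 ± 0.19 (adjusted p = 0.0337) and IFIT3 by 0.61 ± 0.07 (adjusted p = 0.000602). MX1 was lower by -0.32 ± 0.04 (adjusted p = 0.000533). The IFIT1 call was lost on the deposited values (0.57, adjusted p = 0.0596) and in all but 1 of the 11 fits without 1 array (adjusted p up to 0.111), the exception being the fit without SKOV3 mimic replicate 1, where the difference was 0.94. OAS1, IFIH1, DDX58 and IFI6 were not called (OAS1 -0.15, adjusted p = 0.385, and IFI6 -0.22, adjusted p = 0.373). On the deposited values OAS1 and IFI6 were called lower in MDA-MB-231 cells, at -0.26 (adjusted p = 0.0417) and -0.43 (adjusted p = 0.0363). The comparisons between lines and those between treatments use the same arrays, so they are not independent of each other.

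**Figure D4:**
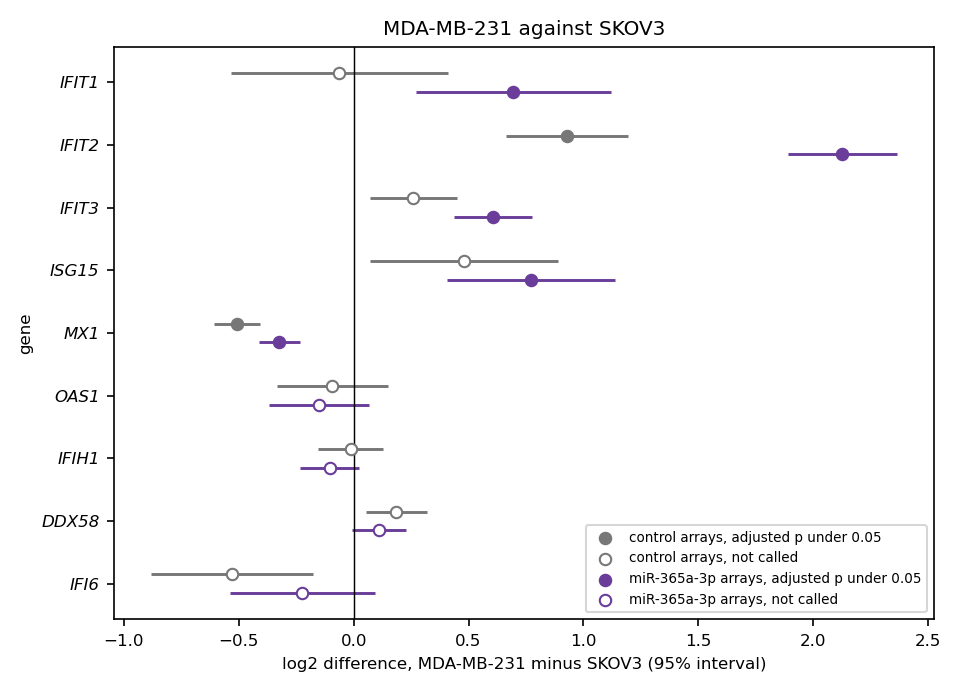
Log2 difference between MDA-MB-231 and SKOV3 cells (x axis, with 95% intervals) for each of the 9 genes in the control arrays (grey) and in the miR-365a-3p arrays (purple). Filled points have an adjusted p under 0.05: IFIT2 and MX1 in the control arrays, and IFIT1, IFIT2, IFIT3, ISG15 and MX1 in the mimic arrays.

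Across the 11 arrays, IFIT1 (Pearson r = 0.94), ISG15 (0.94) and IFIT3 (0.85) followed the mean of the other 8 genes most closely, and MX1 ran against it (-0.60). These arrays share treatment and cell line, and after group means were removed r was 0.59 for IFIT1, 0.63 for ISG15, 0.73 for IFI6 and -0.42 for IFIT3. Of 15653 genes ranked, the 5 whose levels were most like the mean of the 9 genes were ECSIT, CRBN, LRRC49, C9orf23 and GPATCH2, with r between 0.989 and 0.994 over 11 arrays. ECSIT, a signalling adaptor of the Toll pathway and of mitochondrial complex I assembly, averaged 8.53 in MDA-MB-231 mimic and 7.71 in control arrays, and 8.01 and 7.57 in SKOV3 cells. CRBN, the substrate receptor of a ubiquitin ligase, averaged 10.61 and 9.24 in MDA-MB-231 and 9.82 and 9.08 in SKOV3 cells. IRF9 was ninth in this order, with r = 0.986. After group means were removed r was 0.70 for IRF9, and between 0.80 and 0.91 for the 5 genes at the top.

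The rest of the pathway was read from lists of ligands, sensors, transducers and other interferon-stimulated genes. The ligands were dim. Of 20 type I and type III interferon genes, 18 lay in the dim range in every group, against 16074 of all 31325 genes. IFNB1, among the first interferons made after RNA is sensed, averaged between 7.24 and 7.28 in the 4 groups. In MDA-MB-231 cells 1 of the 20 was called (IFNA6, 0.07 higher, adjusted p = 0.0128), and in SKOV3 cells none was, against 26.1% and 14.4% of all genes. On the deposited values 2 were called higher in MDA-MB-231 cells and 1 lower in SKOV3 cells.

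Among 20 sensors and adaptors, 4 were higher and 5 lower in MDA-MB-231 cells, and 1 was higher and 2 lower in SKOV3 cells, with median log2 differences of 0.0045 and -0.014, against 26.1% and 14.4% of all genes called. The higher genes in MDA-MB-231 were IRF3 (0.52, adjusted p = 0.0217), IRF7 (0.32, adjusted p = 0.000332), TLR3 (0.16, adjusted p = 0.00258) and the DNA sensor cGAS, listed under its older symbol C6orf150 (0.21, adjusted p = 0.00218). None of these 4 was called higher on the deposited values, where 7 of the 20 were called in each line and all were lower. EIF2AK2, which encodes the RNA-activated kinase PKR, fell by -0.68 in MDA-MB-231 (adjusted p = 9.54e-05) and -0.64 in SKOV3 cells (adjusted p = 0.000498). TRIM25, the ubiquitin ligase that activates RIG-I, fell by -0.79 in MDA-MB-231 cells (adjusted p = 0.0101) and had a difference of -0.56 in SKOV3 cells (adjusted p = 0.108), which was called on the deposited values (-0.82, adjusted p = 0.0282). MAVS was present under 2 older symbols: VISA was not called in either line (-0.13 and -0.08), and KIAA1271 was lower in MDA-MB-231 cells by -0.14 (adjusted p = 0.00857) and, on the deposited values, in SKOV3 cells by -0.19 (adjusted p = 0.00979). DHX58, the third RIG-I-like receptor, read between 7.31 and 7.51 on average and was not called for treatment in either line. The adaptor TMEM173 (STING) was lower in MDA-MB-231 than in SKOV3 controls by -0.84 (adjusted p = 0.000532), and C6orf150 was higher by 0.77 (adjusted p = 3.83e-06).

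Of 20 receptors, kinases, STATs, interferon regulatory factors and feedback genes, 3 were higher and 6 lower in MDA-MB-231 cells, and 2 were higher and 3 lower in SKOV3 cells, against 26.1% and 14.4% of all genes called. IRF9, the DNA-binding partner of STAT2, was higher after the mimic by 1.27 in MDA-MB-231 (adjusted p = 3.96e-05) and 0.57 in SKOV3 cells (adjusted p = 0.00715). Both calls held on the deposited values (0.98 and 0.31, adjusted p = 6.85e-05 and 0.0491). In SKOV3 cells the IRF9 call held under 16 of 19 alternatives and was lost with SKOV3 arrays alone (adjusted p = 0.0706). STAT2 had differences of -0.29 and -0.61 in MDA-MB-231 and SKOV3 cells and was not called in either (adjusted p = 0.403 and 0.129). The kinase TYK2 fell by -1.44 in MDA-MB-231 (adjusted p = 0.00180) and -0.95 in SKOV3 cells (adjusted p = 0.0382), where the call held under 11 of 19 alternatives. JAK1 was not called for treatment (-0.48 and -0.18), and it was lower in MDA-MB-231 than in SKOV3 mimic arrays by -0.997 (adjusted p = 0.00634). The receptor chain IFNAR1 fell in MDA-MB-231 cells by -0.51 (adjusted p = 0.0174), and IFNAR2 was called in neither line for treatment. The feedback phosphatase PTPN2 was higher by 0.52 and 0.28 (adjusted p = 6.72e-05 and 0.00533), though on the deposited values the SKOV3 difference was not called (adjusted p = 0.989). The phosphatase PTPN11 was lower by -2.15 in MDA-MB-231 cells (adjusted p = 0.00424), and PIAS1, a SUMO ligase, was lower by -0.74 and -0.53 (adjusted p = 0.000835 and 0.0145). The SKOV3 call of PIAS1 held under 17 of 19 alternatives.

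The other interferon-stimulated genes moved in both directions. Of 44 listed, 12 were higher and 5 lower in MDA-MB-231 cells (median log2 difference 0.086), and 5 were higher and 6 lower in SKOV3 cells (median 0.040), against 26.1% and 14.4% of all genes called. On the deposited values the counts were 4 higher and 12 lower, and 3 higher and 12 lower, with medians of -0.03 and -0.07. The split over all genes shifted likewise: 4511 genes were called higher and 3663 lower in MDA-MB-231 cells, against 2275 and 5620 on the deposited values, and in SKOV3 cells 2270 and 2228, against 1201 and 4401.

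The genes of that list that rose included IFI44, a cytoplasmic protein induced by interferon, at 1.11 in MDA-MB-231 (adjusted p = 0.00370) and 1.02 in SKOV3 cells (adjusted p = 0.0180). In SKOV3 cells the IFI44 call held under 16 of 19 alternatives and was lost with SKOV3 arrays alone (adjusted p = 0.113). EPSTI1 was higher by 0.38 and 0.66 (adjusted p = 0.00308 and 0.000733). IFI35 was higher by 0.82 in MDA-MB-231 cells (adjusted p = 0.00103) and had a difference of 0.43 in SKOV3 cells (adjusted p = 0.0594), and TRIM21, a cytosolic antibody receptor, was higher by 0.52 in MDA-MB-231 cells (adjusted p = 0.0101) but was not called on the deposited values (0.18, adjusted p = 0.276). OASL, an OAS family member without synthetase activity, was higher by 0.73 in MDA-MB-231 cells (adjusted p = 1.58e-05) and had a difference of 0.00 in SKOV3 cells, where it lay in the dim range at 7.35 and 7.36.

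The 5 genes of the list that fell in MDA-MB-231 cells also fell in SKOV3 cells, and PKR (EIF2AK2) is one of them. The RNA-editing enzyme ADAR fell by -1.70 in MDA-MB-231 (adjusted p = 0.000102) and -1.51 in SKOV3 cells (adjusted p = 0.000695). The membrane proteins that block viral entry fell too, IFITM2 by -1.57 and -1.86 (adjusted p = 6.36e-05 and 9.69e-05) and IFITM3 by -1.34 and -2.26 (adjusted p = 0.00061 and 0.000154). LGALS3BP, a secreted glycoprotein, fell by -1.24 and -1.14 (adjusted p = 6.69e-05 and 0.000377). These falls were also called on the deposited values. UBE2L6, the enzyme that hands ISG15 to its targets, was called lower in SKOV3 cells (-0.31, adjusted p = 0.0131), a call that held under 16 of 19 alternatives. It was not called in MDA-MB-231 cells (0.02, adjusted p = 0.861), although on the deposited values it was called lower there too (-0.33, adjusted p = 0.0490).

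The same list was compared between the lines. In the control arrays 3 of the 44 were higher and 14 lower in MDA-MB-231 cells, against 7.76% of all genes higher and 8.34% lower. BST2, the membrane tether of enveloped viruses, was lower by -2.42 (adjusted p = 8.83e-07), IFITM3 by -1.93 (adjusted p = 0.000173), IFITM2 by -1.38 (adjusted p = 0.000214), IFI35 by -1.26 (adjusted p = 0.00021), EPSTI1 by -0.99 (adjusted p = 3.94e-05) and IFI27 by -0.67 (adjusted p = 0.0154). The DNA sensor IFI16 was higher by 0.78 (adjusted p = 0.0138). The receptor chain IFNGR1, from the list of receptors, was lower by -0.95 (adjusted p = 0.00320).

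**Figure D5:**
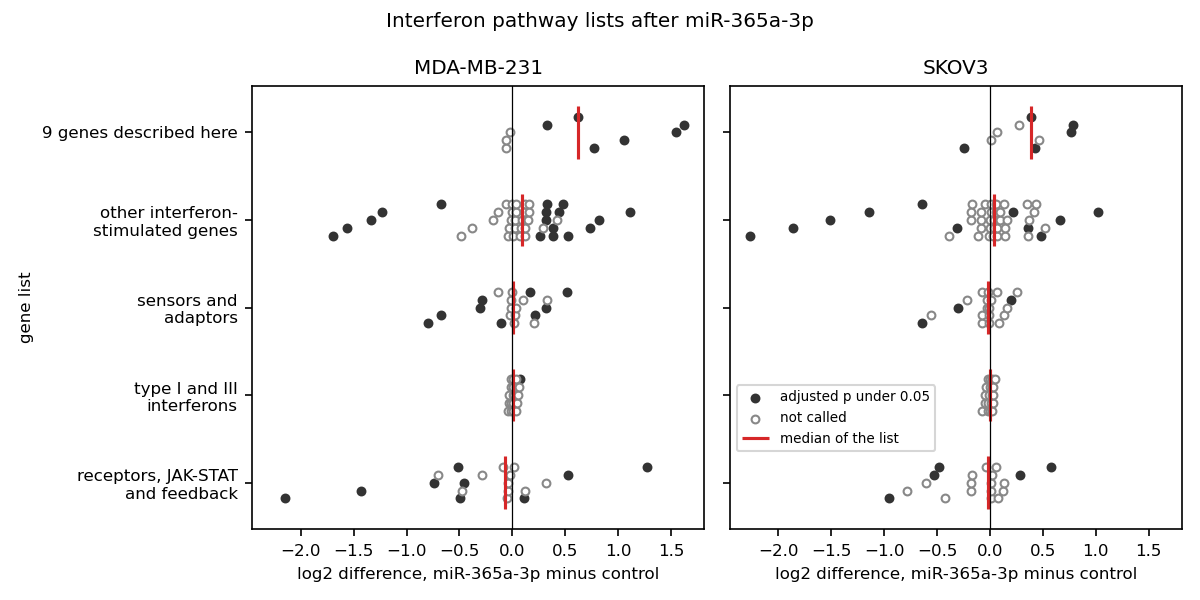
Log2 difference between miR-365a-3p and control miRNA (x axis) for every gene of 5 lists (y axis) in MDA-MB-231 (left) and SKOV3 cells (right). Points are genes, filled where the adjusted p is under 0.05, and red lines are list medians. The medians of the 9 genes are 0.62 and 0.39, while those of the other interferon-stimulated genes are 0.086 and 0.040, with called genes on both sides of 0.

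Markers of leukocytes were mostly dim. Of 14 listed, 11 lay in the dim range in every group, against 16074 of all 31325 genes. PTPRC (CD45) was among them and averaged between 7.28 and 7.30. CD68 averaged between 9.27 and 10.01 and CSF1R between 7.34 and 8.47. LYZ and CSF1R, 2 of the 14, were called higher after the mimic in MDA-MB-231 cells (0.22 and 0.34, adjusted p = 0.0276 and 0.00123), against 26.1% of all genes called. Neither LYZ nor CSF1R was called on the deposited values (0.03 and -0.04). Their part in the results for the 9 genes was not tested.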

How the data were processed

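mRNA was profiled on Illumina HumanHT-12 v4 BeadChips in 11 samples of 4 groups, grouped by cell line and treatment as labelled. The authors amplified and biotin-labelled cRNA and quantile normalized the signals with lumi. The deposited values are on a log scale, a single one for each symbol on each array, and are treated here as log2. Whether they are plain log2 or variance stabilized, the background correction and rule for combining probes are not given in the sources used here. The deposited columns did not share a distribution, so they were quantile normalized again (limma 3.58.1, R 4.3.3), 4 group means were fitted to all 31325 genes, and 5 contrasts were moderated with eBayes and adjusted by the Benjamini-Hochberg method. Tested on simulated data, genes changed by 1 on the log2 scale were called in 94% (MDA-MB-231) and 91.5% (SKOV3) of 200 cases, over 31325 genes. Of the unchanged genes 10 and 17 were called. The simulation started from normalized values and changed few genes. The SKOV3 differences of the 9 genes were at most 0.79, so these rates do not carry over to them. Figures were drawn from the fitted values.

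The 9 genes and all lists were chosen with earlier results of these data known. Named genes were the 9, those of each pathway list called in any contrast with an absolute log2 difference of at least 0.5 (at most 6 per list and contrast), 14 core pathway genes whatever their values (1 of them is not reported here), the 5 genes most like the 9, and the markers; OAS2 and IFNA6 were named after their values were seen. Replicate numbers in the labels were checked over 6853 genes: deviations of same-numbered mimic arrays of the 2 lines correlated at 0.70, 0.31 and 0.34. Differently numbered arrays were not compared, so these values do not establish that the numbers pair the arrays. The numbers were used as a block for those arrays in 1 alternative. With that block the same count of 5 genes differed between lines. Other same-numbered arrays correlated between -0.13 and 0.23. Alternatives were other normalizations, a filter on dim genes, fits of single contrasts, a replicate block, trend and robust moderation, array weights, a stricter threshold and leaving out each array. The number of arrays limits the precision.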

Additional observations from a re-analysis of the deposited data

Results flagged for a closer look

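A test of the difference itself found that the effect of miR-365a-3p differed between the lines for 5 of the genes named here. All 5 had a larger or less negative effect in MDA-MB-231 cells. They were 1 of the 9 genes, 2 of the 44 other interferon-stimulated genes, 1 of the 20 receptors to feedback genes and 1 of 7 SKOV3 markers. Over all genes 2.54% were called for this difference, and no gene of the other lists was. IFIT2 differed by 1.20 on the log2 scale (limma, adjusted p = 0.00582), and its mimic arrays were above its controls in both lines. The IRF9 difference was 0.70 (adjusted p = 0.0409), with higher levels after the mimic in both lines. OASL differed by 0.73 (adjusted p = 0.00118) and OAS2 by 0.29 (adjusted p = 0.00958), and the SKOV3 arrays of both were in or near the dim range. With the replicate number within each line as a block the IFIT2, IRF9, OASL and OAS2 differences were not called (adjusted p = 0.0948, 0.198, 0.0866 and 0.0696), while that of PAX8 was (adjusted p = 0.0217). Same-numbered mimic and control arrays of a line correlated only between -0.12 and 0.23. With this block 0.393% of all genes were called. On the deposited values without further normalization the OAS2 difference was 0.07 (adjusted p = 0.478). The IRF9 difference was called under 7 of its 18 alternatives. PAX8 differed by 0.67 (adjusted p = 9.61e-05): it fell in SKOV3 cells by -0.70 and was in the dim range in MDA-MB-231 cells.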

How the results depend on the processing

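The number of the 9 members called higher or lower after the mimic in MDA-MB-231 cells was 6, and 5 or 6 under every alternative. In SKOV3 cells it was 5, but 1 on the deposited values, 2 with each array centred on its median, 2 with SKOV3 arrays alone, 2 with a replicate block, 1 at an adjusted p under 0.01, 4 with trend and robust moderation, 6 with cyclic loess, 7 with the filter on dim genes, 7 with array weights, and between 0 and 5 when 1 array was left out. For the difference of the effect between lines it was 1, but 2 on the deposited values, 2 with median centring, 2 with cyclic loess, 2 with array weights, 0 with a replicate block, where IFIT2 differed by 1.12 (adjusted p = 0.0948), and 1 or 2 when 1 array was left out. No fit of single contrasts exists for that difference. Between the control arrays of the lines it was 2, but 4 on the deposited values and with median centring, cyclic loess, the filter on dim genes, control arrays alone, a replicate block, or trend and robust moderation, 6 with array weights, and between 2 and 5 when 1 array was left out. Between the mimic arrays it was 5, 6 on the deposited values and with median centring (OAS1 and IFI6 added, IFIT1 lost), 4 with mimic arrays alone, 3 at an adjusted p under 0.01, and 4 or 5 when 1 array was left out. The share of all genes called moved with the setting as well. For treatment in SKOV3 cells it was 14.4% in the main fit and 17.9% on the deposited values. It was 9.02% with SKOV3 arrays alone, 9.89% with the block, 32.8% with the filter on dim genes and 23% with array weights. Between the control arrays it was 16.1%, but 33.4% with the filter and 23% with array weights. The causes of these changes were not tested, apart from the fewer arrays or stricter threshold of some alternatives. No called value of the 9 genes changed sign. The genes behind a steady count did change: on the deposited values IFIT3 and OAS1 lost their treatment calls in MDA-MB-231 cells, and DDX58 was called lower. IRF9's difference between lines kept its call under 7 of 18 alternatives. The labels do not say whether same-numbered mimic and control arrays of a line share more than the number. Their weak correlations do not decide it. The deposited scale floors near the dim range, which limits what can be seen for MX1, IFIH1, DDX58 and the interferons.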
